A study of Mus musculus with 6 samples.

Results

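Integrins are cell-surface receptors made of 1 alpha and 1 beta chain, and laminins are cross-shaped basement membrane proteins made of 1 alpha, 1 beta and 1 gamma chain. Their subunit genes were followed here in cultured mouse podocytes, the epithelial cells whose foot processes rest on the glomerular basement membrane. The genes were chosen by symbol: integrin alpha or beta subunits and laminin alpha, beta or gamma chains, 36 genes in all (26 integrin and 10 laminin), out of 20659 gene symbols on the array. Of these, 34 matched a probe (24 integrin and 10 laminin genes, 45 probes). 25 genes, 16 integrin and 9 laminin, were bright enough to test among 21470 genes tested.

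The cells were conditionally immortalised with a temperature-sensitive SV40 T antigen, grown at 33 °C and then kept at 37 °C to differentiate for 10 days. The 6 arrays form 3 groups of 2: shTug1 clone 2 and shTug1 clone 3, which carried a lentiviral short hairpin RNA against the long noncoding RNA Tug1, and shControl, which carried a scrambled hairpin in the same vector. Each shTug1 group is 1 clone, and the replicates are described as biological, without a statement of what was separate, so p-values measure only the spread between these arrays. The deposited file headers give the 4 shTug1 arrays one scan time and the 2 control arrays another, so scan and hairpin cannot be told apart. The number of arrays limits the precision of every value.

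In the podocyte, the integrin of the Itga3 and Itgb1 chains is the main receptor for the laminin of the glomerular basement membrane. That laminin is built from the Lama5, Lamb2 and Lamc1 chains in the mature kidney, where it takes the place of laminins containing Lama1 and Lamb1 chains during development. Inherited loss of LAMB2 or ITGA3 causes kidney disease with protein loss in humans. Integrins that recognise the RGD motif of fibronectin and vitronectin, among them those with the Itga5 and Itgav chains, attach cells to other matrix.

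Signals are given as log2 of the processed intensity relative to the 75th percentile of the same array, so 0 is the level of a fairly bright probe and each unit is a doubling. Differences are shTug1 minus shControl on this log2 scale. A gene is called higher or lower where its adjusted p (limma, Benjamini-Hochberg over all genes tested) is below 0.05. The scale has no fixed zero across arrays: the median gene stood at −0.64 in the mean of the clones minus shControl, −0.80 for clone 2 and −0.46 for clone 3. After quantile normalization the median gene stood at −0.24 in the mean comparison. Relative to the median gene, the sign of the mean difference turned for 4 of the 25 genes, none of them called: Itgb2 (0.50), Itgb3 (0.13), Itgb4 (0.04) and Lamc1 (0.28).

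The targeted RNA checks the labels. The Tug1 probe above background on all 6 arrays (chromosome 11) read −1.86 and −1.88 in clone 2 and −3.10 and −3.23 in clone 3, against −2.88 and −2.49 in shControl. Tug1 was not called in the mean of the clones (0.16, adjusted p = 0.65), in clone 2 (0.81, adjusted p = 0.0798) or in clone 3 (−0.48, adjusted p = 0.321). This probe did not show lower Tug1, so shTug1 below means the arrays that carry that label. A different Tug1 probe read −2.73 and −2.94 in clone 2 and −6.36 and −3.58 in clone 3, against −6.21 and −6.38 in shControl, and was above background on 3 arrays. The other one was at background on all 6. The 75th percentile intensity was 569 to 1055 on the shTug1 arrays, against 324 and 363 on the control arrays, with 61.7% to 68.0% of probes well above background in shTug1 and 58.2% to 58.3% in shControl. The control pair was also the less alike: the median difference between its replicates over the 25 genes was 0.78, against 0.20 in clone 2 and 0.32 in clone 3, and over all genes it was 0.72, against 0.22 and 0.24. Of 10 podocyte markers used here, 7 were well above background on all 6 arrays, including Nphs1, Wt1 and Synpo, while Podxl and Tcf21 each reached it on 1 array. The log2 of the summed podocyte marker signal was 3.44 to 4.18 in shTug1, against 5.04 and 4.98 in shControl, with Cd2ap the main part of it (2.85 to 3.95 in shTug1, against 4.51 and 4.72 in shControl). Of the 8 podocyte markers tested 5 were called lower, as were 30.4% of all genes. The summed tubular markers were at 4.80 to 5.57 in shTug1, against 6.61 on both control arrays, with Aqp1 the main part (4.42 to 5.40, against 6.51 and 6.44). Lrp2 overlapped, at 1.90 to 2.39 in shTug1, against 2.15 and 3.18 in shControl. Of the 6 tubular markers tested 3 were called lower. Relative to the median gene, the median was −0.56 over the podocyte markers tested and −0.52 over the tubular ones. Of 4 endothelial markers tested 1 was called lower, with a median of 0.12 relative to the median gene. Of 4 parietal markers tested 1 was called higher (Cldn1, above background on no control array), with a median of 0.20. Over all genes 10.2% were called higher. The part of these lists in the results was not tested.

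The promoters of 4 genes that the results turn on are shown, chosen because 2 are called higher in the comparison below (Itga5 and Itgb1) and 2 lower (Itga9 and Lamb1). Each window is 300 bases long, most of them before the annotated start, read 5′ to 3′ along the gene's strand, from RefSeq on GRCm38.p6. Capitals mark matches on either strand to 4 motifs, which do not overlap each other here. The GC box is GGGCGG, the CCAAT box is CCAAT, the TATA box is TATAAA and the AP-1 site is TGACTCA.
Itga5 (chr15:103366742-103367041, minus strand): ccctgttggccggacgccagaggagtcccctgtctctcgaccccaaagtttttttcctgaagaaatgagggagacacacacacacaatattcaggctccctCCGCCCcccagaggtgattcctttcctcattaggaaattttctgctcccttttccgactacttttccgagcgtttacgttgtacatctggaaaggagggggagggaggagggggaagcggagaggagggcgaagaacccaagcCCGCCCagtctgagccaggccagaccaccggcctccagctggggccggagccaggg
Itgb1 (chr8:128685404-128685703, plus strand): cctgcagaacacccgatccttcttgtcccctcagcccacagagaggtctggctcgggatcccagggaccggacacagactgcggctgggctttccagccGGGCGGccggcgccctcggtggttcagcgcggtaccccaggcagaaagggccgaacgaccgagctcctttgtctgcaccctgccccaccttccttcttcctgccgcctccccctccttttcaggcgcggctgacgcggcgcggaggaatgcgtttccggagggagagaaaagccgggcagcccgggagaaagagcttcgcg
Itga9 (chr9:118711442-118711741, plus strand): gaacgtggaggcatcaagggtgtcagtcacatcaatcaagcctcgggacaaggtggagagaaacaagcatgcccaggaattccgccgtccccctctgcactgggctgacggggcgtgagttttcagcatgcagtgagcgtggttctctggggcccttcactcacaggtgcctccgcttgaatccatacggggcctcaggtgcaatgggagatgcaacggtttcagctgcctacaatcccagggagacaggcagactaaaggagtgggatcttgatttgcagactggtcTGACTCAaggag
Lamb1 (chr12:31265043-31265342, plus strand): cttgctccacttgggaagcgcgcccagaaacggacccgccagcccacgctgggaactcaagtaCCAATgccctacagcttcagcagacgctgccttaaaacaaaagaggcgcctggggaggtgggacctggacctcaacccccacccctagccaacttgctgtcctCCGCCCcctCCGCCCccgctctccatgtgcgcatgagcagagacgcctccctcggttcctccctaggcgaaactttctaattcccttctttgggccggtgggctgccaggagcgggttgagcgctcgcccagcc

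The Itga5 window held 2 GC boxes and the Itgb1 window 1, the Lamb1 window held 2 GC boxes and 1 CCAAT, and the Itga9 window held 1 AP-1 match. RefSeq windows were found for 23 of the 36 genes, 26 windows in all. A GC box was present in 46.2% of these windows, against 35.7% of all 32851 promoter windows, and CCAAT in 15.4%, against 37.4%. The GC box was in 5 of 6 windows of genes called higher and in 4 of 7 windows of genes called lower. These windows came from 5 and 6 genes, since Itga3 had more than 1 of the former and Lamb3 had overlapping windows in the latter. No TATA box match was in any of the 26 windows, against 13.6% of all promoters, and AP-1 matches were in 7.69%, against 5.2%. Median GC content was 58.8% in the members' windows, against 52.7% in all windows. These matches describe letters in a window.

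In the mean of the clones minus shControl, 5 of the 25 genes were called higher and 10 lower, against 10.2% called higher and 30.4% called lower among all genes. The list itself was not tested. The 5 higher genes were all integrin subunits: Itgb1, Itga5, Itga3, Itga1 and Itgav. Of the 16 integrin genes, 5 were higher, 3 lower (Itga7, Itga9 and Itgam) and 8 not called, and of the 9 laminin genes none was called higher, 7 were lower and 2 were not called. These counts are partly set by the brightness filter: Lama1 and Lama2 passed it through shControl and Itga1 through shTug1, and with a filter on all 6 arrays these 3 genes are not tested. The median difference over all 25 genes was −0.88, which is −0.24 relative to the median gene. The median was −0.55 over the integrins (0.09 relative to the median gene) and −1.25 over the laminins (−0.62 relative to it). After quantile normalization 1 member was higher (Itga5) and 6 lower (Itga7, Itga9, Itgam, Lama1, Lamb3 and Lamc3), against 11.5% and 14.5% of all genes. All 4 shTug1 arrays stood above both control arrays for 4 members and below them for 13, against 12.3% and 43.1% of all genes.

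**Figure D1:**
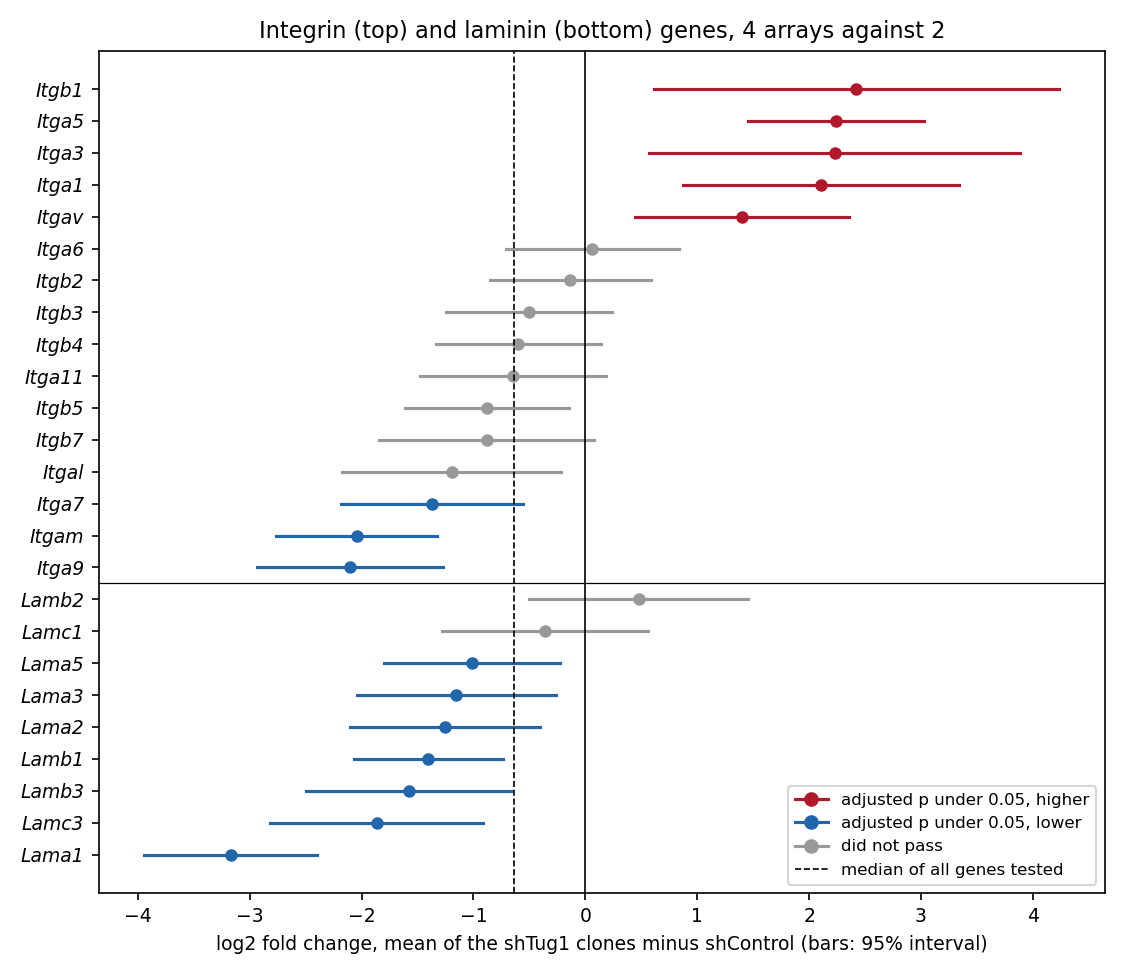
Difference on the log2 scale, mean of the shTug1 clones minus shControl, for each of the 25 tested integrin and laminin genes, with bars for the 95% confidence interval of the limma fit and the median of all genes (−0.64) marked. The 5 genes called higher are all integrins, and 7 of the 9 laminins are called lower, against 10.2% higher and 30.4% lower among all genes. Lama1 and Lama2 entered the test through shControl and Itga1 through shTug1. After quantile normalization the laminins called lower were Lama1, Lamb3 and Lamc3.

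The collagen-binding alpha chains pair with Itgb1. Itga1 read −0.93 and −1.10 in clone 2 and −2.39 and −1.16 in clone 3, against −4.32 and −2.69 in shControl. All 4 shTug1 arrays were above both controls, of which only 1 was well above background, so this probe entered the test through shTug1. The fitted difference was 2.10 (SE 0.53, adjusted p = 0.0222), but 0.78 (adjusted p = 0.0274) after normexp background correction. A second Itga1 probe was at −0.92 (adjusted p = 0.0839, here and for other second probes over all probes tested) and was above background on 4 arrays. Itga11 was not called (−0.65, adjusted p = 0.169), Itga2 stayed at background on every array, and Itga10 matched no probe.

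Among the laminin-binding alpha chains, 1 gene was called higher, 1 lower and 1 was not called. Itga3, the podocyte's laminin receptor chain, read 2.03 and 0.33 in clone 2 and 0.75 and 0.80 in clone 3, against −2.48 and −0.02 in shControl. Every shTug1 array was above both controls, but the control pair differed by 2.46. The difference was 2.23 (SE 0.72, adjusted p = 0.0415), and 1.00 (adjusted p = 0.296) without shControl replicate 1. Itga7, the laminin receptor chain of muscle, was lower: −0.02 and 0.04 in clone 2 and 0.71 and 0.36 in clone 3, against 2.09 and 1.19 in shControl. Its difference was −1.37 (SE 0.35, adjusted p = 0.0227), −0.73 relative to the median gene. Itga6, which pairs with Itgb1 or Itgb4, read 1.76 and 2.31 in clone 2 and 1.98 and 1.66 in clone 3, against 2.13 and 1.59 in shControl. Its groups overlapped, with a difference of 0.06 (95% confidence interval −0.71 to 0.83).

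Both RGD-binding alpha chains that could be tested were higher. Itga5, the fibronectin receptor chain, read −0.06 and −0.61 in clone 2 and 0.15 and 0.54 in clone 3, against −2.53 and −1.94 in shControl. The shTug1 arrays lay well clear of the controls, and the difference was 2.24 (SE 0.34, adjusted p = 0.00978), a 4.73-fold higher signal. Itgav, which pairs with several beta chains, read −1.18 and −0.66 in clone 2 and −1.17 and −1.52 in clone 3, against −3.15 and −1.92 in shControl. The arrays again did not overlap, and the difference was 1.40 (SE 0.41, adjusted p = 0.0324). It was not called after quantile normalization (1.58, adjusted p = 0.0638) or normexp background correction (0.59, adjusted p = 0.0575). A second Itgav probe gave 1.59 (adjusted p = 0.0227). That probe was well above background on only 1 control array, so it entered the test through shTug1 and is no separate support. Without shControl replicate 1, the Itgav difference was 0.78 (adjusted p = 0.114). Itga8, the nephronectin receptor chain that also marks mesangial cells, was above background on 1 array of each clone and on no control array. Its levels overlapped, at −6.78 to −5.31 in shTug1, against −6.38 and −5.83 in shControl. The platelet chain Itga2b was above background on no array.

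Itga9, which pairs with Itgb1 and binds tenascin and other ligands, was lower. It read 0.90 and 0.89 in clone 2 and 1.71 and 1.51 in clone 3, against 3.86 and 2.84 in shControl. All 4 shTug1 arrays were below both controls, with clone 2 the lower of the clones, and the difference was −2.10 (SE 0.36, adjusted p = 0.0121). Itga4, its closest relative, was not tested, since 1 of its probes was above background on 1 control array and the other on 1 clone 2 array.

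The leukocyte alpha chains are best known from blood cells and pair with Itgb2, except Itgae, which pairs with Itgb7. Itgam read 0.84 and 0.73 in clone 2 and 1.13 and 0.87 in clone 3, against 3.23 and 2.65 in shControl. The 6 arrays fell into 2 separate bands, and the difference was −2.04 (SE 0.31, adjusted p = 0.00978). The other 2 Itgam probes were not called, at −0.75 (adjusted p = 0.169) and −0.96 (adjusted p = 0.19). The latter was well above background on 5 arrays, only 1 of them in clone 2. Itgal was at −1.20 (adjusted p = 0.054) and Itgb2 at −0.13 (adjusted p = 0.731). Itgad and Itgax stayed at background on every array, and Itgae matched no probe. The summed level of other immune markers moved with Itgam, and most of it was Csf1r: the log2 of the summed signal of the list without its integrin genes was 0.88 to 1.83 in shTug1, against 4.36 and 3.02 in shControl. Csf1r itself read −0.07 to 0.96 in shTug1, against 4.07 and 2.71 in shControl, a difference of −2.94 (adjusted p = 0.00878). Of 8 immune markers tested 2 were called lower, Csf1r and Itgam, against 30.4% of all genes, while Lyz2 stayed at background throughout. Ptprc was above background on all 4 shTug1 arrays and on no control array, but its levels overlapped. It read −5.21 to −4.17 in shTug1, against −4.19 and −4.91 in shControl. The lowest signal well above background was −5.91 to −5.33 on the shTug1 arrays, against −4.09 and −4.50 on the control arrays. 7 of the 9 immune markers on the array, the 3 integrins included, were above background on all 6 arrays, and their part in the result was not tested. In cultures read as a whole, fewer cells of a type and less RNA per cell cannot be told apart.

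Of the beta chains, Itgb1, the partner of most of the alpha chains above, stood out by its spread. It read 4.18 and 3.26 in clone 2 and −0.17 and 0.81 in clone 3, against −1.91 and 1.11 in shControl. Clone 2 was far above every other array, whereas clone 3 lay between the controls. The mean difference was 2.42 (SE 0.78, adjusted p = 0.0418), and 0.91 (adjusted p = 0.247) without shControl replicate 1. A second Itgb1 probe was called in clone 2 (2.16, adjusted p = 0.0199) but not in clone 3 (−0.18, adjusted p = 0.831) or in the mean (0.99, adjusted p = 0.117). This second probe was well above background on only 1 control array, so it entered the test through shTug1.

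Of the other beta chains that pair with Itgav, neither tested gene was called. Itgb5 read 6.13 and 6.42 in clone 2 and 7.21 and 6.83 in clone 3, against 7.76 and 7.28 in shControl. The shTug1 arrays were below both controls, with a difference of −0.88 (adjusted p = 0.0572), but after quantile normalization it was 0.20. Itgb3 was at −0.50 (adjusted p = 0.225). Itgb6 and Itgb8 stayed at background on every array. The hemidesmosome chain Itgb4 was at −0.60 (adjusted p = 0.156) and Itgb7 at −0.88 (adjusted p = 0.118).

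**Figure D2:**
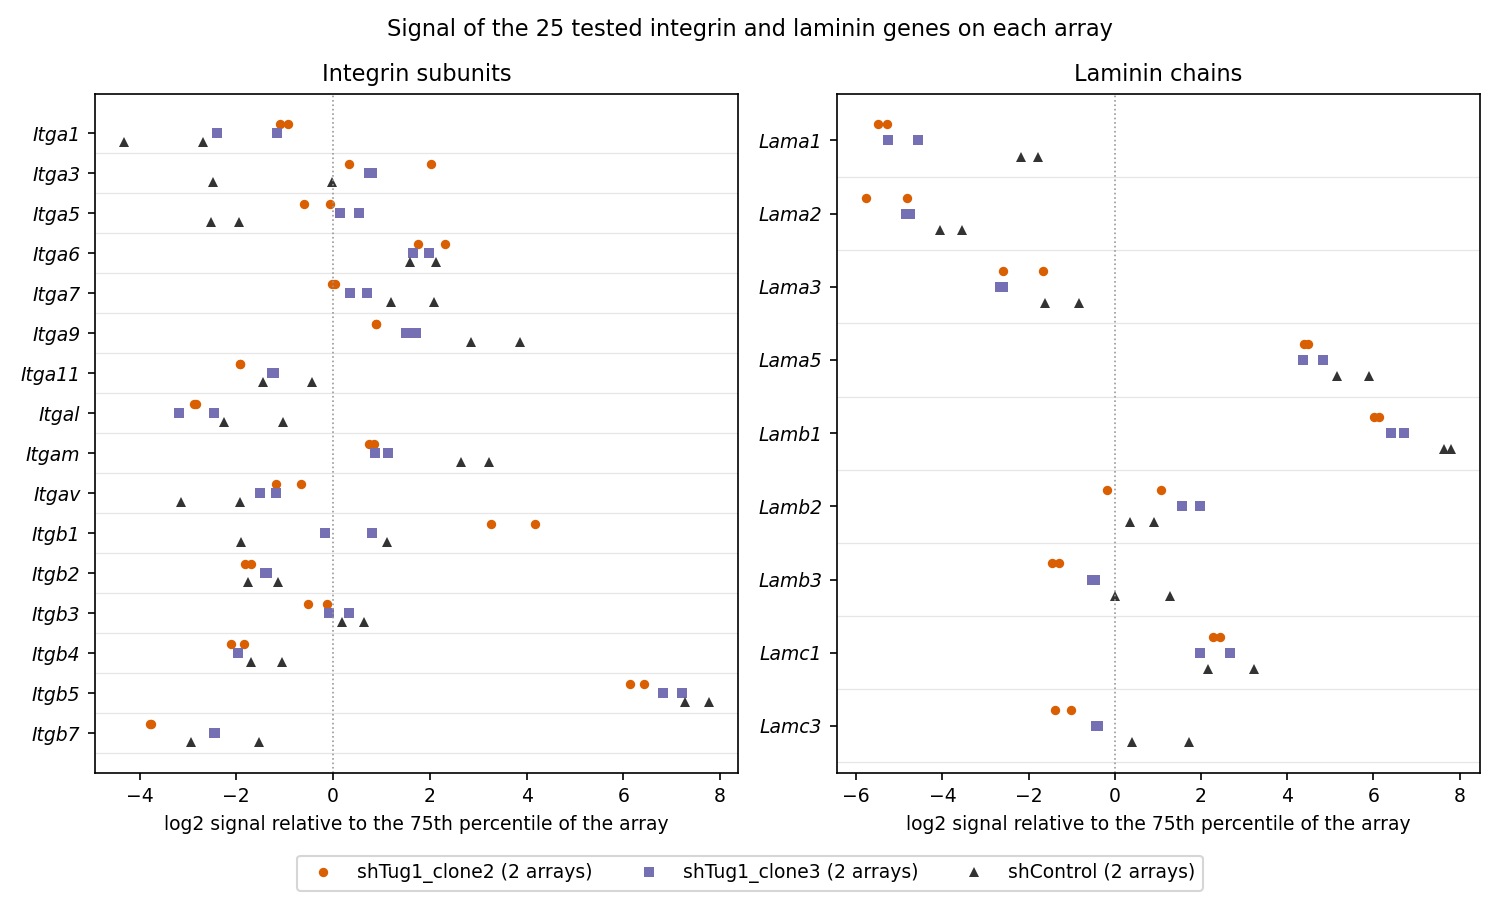
Signal of each of the 25 tested genes on each array, as log2 intensity relative to the 75th percentile of the array, with circles for clone 2, squares for clone 3 and triangles for shControl. All shTug1 arrays lie above both controls for 4 genes, Itga5 among them, against 12.3% of all genes. They lie below both controls for 13 genes, Itga9, Itgam and Lama1 among them, against 43.1% of all genes. For Itgb1 only the clone 2 arrays stand clear of the controls.

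Lama1, the alpha chain of the early embryonic basement membrane, was called lower. It read −5.29 and −5.49 in clone 2 and −5.27 and −4.57 in clone 3, against −1.79 and −2.19 in shControl. Of the 4 shTug1 arrays 1 was well above background, against both control arrays, so Lama1 entered the test through shControl. The fitted difference was −3.17 (SE 0.33, adjusted p = 0.00594), a size that rests on signals at background on 3 arrays, and it was −1.87 after normexp background correction. In clone 2, where neither array was well above background, the fitted difference was −3.41, and −2.05 at its smallest under other processing, so no fold is given. In clone 3 the fitted difference was −2.93 (adjusted p = 0.0249) with 1 of 2 arrays above background.

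Of the chains of the mature glomerular laminin, Lama5 was called lower and Lamb2 and Lamc1 were not called, and differences between the chains were not tested. Lama5 read 4.49 and 4.38 in clone 2 and 4.83 and 4.36 in clone 3, against 5.16 and 5.90 in shControl. Its difference was −1.01 (SE 0.34, adjusted p = 0.046), which is −0.38 relative to the median gene and −0.20 (adjusted p = 0.734) after quantile normalization. Lamb2 read 1.07 and −0.19 in clone 2 and 1.55 and 1.99 in clone 3, against 0.91 and 0.35 in shControl. Clone 2 overlapped with shControl and clone 3 lay above it, and neither the mean (0.48, adjusted p = 0.369) nor clone 3 alone (1.14, 95% confidence interval 0.01 to 2.27, adjusted p = 0.137) was called. Lamc1, shared by most laminins, read 2.27 and 2.44 in clone 2 and 2.66 and 1.98 in clone 3, against 2.16 and 3.24 in shControl. Its groups overlapped, at −0.36 (95% confidence interval −1.28 to 0.56), and its sign turned after quantile normalization (0.11).

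Lamb1, the early beta chain, was lower. It read 6.12 and 6.01 in clone 2 and 6.71 and 6.41 in clone 3, against 7.79 and 7.64 in shControl. The replicates were close and the groups apart, with a difference of −1.40 (SE 0.29, adjusted p = 0.0156), −0.77 relative to the median gene. After quantile normalization the Lamb1 difference was −0.30 (adjusted p = 0.319).

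The Lama3 and Lamb3 chains belong to the laminin of epithelial anchoring structures in skin. Lamb3 read −1.30 and −1.46 in clone 2 and −0.53 and −0.45 in clone 3, against 1.28 and 0.01 in shControl, a difference of −1.58 (SE 0.40, adjusted p = 0.0218). Lama3 read −1.67 and −2.59 in clone 2 and −2.60 and −2.65 in clone 3, against −0.83 and −1.62 in shControl. One clone 2 array lay only just below the lower control, and the difference was −1.15 (SE 0.38, adjusted p = 0.0459), while a second Lama3 probe was at −0.43 (adjusted p = 0.311).

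Lamc3, a gamma chain of few tissues, read −1.02 and −1.39 in clone 2 and −0.38 and −0.44 in clone 3, against 1.72 and 0.40 in shControl. All 4 shTug1 arrays were below both controls, and the difference was −1.86 (SE 0.41, adjusted p = 0.0173). Lama2, the muscle and nerve chain, was dim: −4.82 and −5.77 in clone 2 and −4.85 and −4.76 in clone 3, against −3.53 and −4.06 in shControl. It was above background on 2 of the 4 shTug1 arrays and on both controls, through which it entered the test, with a difference of −1.25 (SE 0.37, adjusted p = 0.0321). Lama4 stayed at background on every array. Mesangial and stromal markers, other matrix-producing cells of the glomerulus, were also read. The log2 of their summed signal, without Itga8, was 8.59 to 9.17 in shTug1, against 9.99 and 10.05 in shControl. Most of it was Acta2 (7.67 to 8.25 in shTug1, against 9.06 and 9.08) and Tagln (7.45 to 8.02, against 8.86 and 8.97). Of the 5 such markers tested 3 were called lower, against 30.4% of all genes. These markers were above background on all 6 arrays for 5 of 8 and on none for 2 (Pdgfra and Des). Their part in the result was not tested.

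Set against shControl separately, clone 2 had 5 members higher and 10 lower, against 10.2% and 33.8% of all genes, and clone 3 had 1 higher and 3 lower, against 4.35% and 4.68% of all genes. Both comparisons use the same 2 control arrays. In clone 2 the higher genes were Itgb1 (4.12, adjusted p = 0.016), Itga1 (2.48), Itga3 (2.43), Itga5 (1.90) and Itgav (1.61). The lower genes were Lama1 (−3.41), Itga9 (−2.46), Lamc3 (−2.26), Itgam (−2.15), Lamb3 (−2.02), Lamb1 (−1.65), Itga7 (−1.63), Itgb7 (−1.54), Lama2 (−1.50) and Itgb5 (−1.25). In clone 3 the higher gene was Itga5 (2.58, adjusted p = 0.0249) and the lower genes were Lama1 (−2.93), Itgam (−1.94) and Itga9 (−1.75). The clone 3 values of genes called lower in clone 2 alone were −1.46 (Lamc3), −1.16 (Lamb1), −1.13 (Lamb3) and −1.11 (Itga7). Those of Lama2, Itgb5 and Itgb7 were −1.01, −0.50 and −0.22. For genes called higher in clone 2 alone, the clone 3 values were 1.72 for Itga1, 2.03 for Itga3 and 1.19 for Itgav. Itgb1 was at 0.72 in clone 3 (95% confidence interval −1.37 to 2.81).

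The direct comparison of the clones, clone 3 minus clone 2, was made within 1 scan time. None of the 25 genes was called by limma, against 1.27% of all genes. At an unadjusted p below 0.05 there were 3 members (Itgb1, Itgb7 and Lamb2), against 11.9% of all genes. Itgb1 was at −3.40 (95% confidence interval −5.49 to −1.31, adjusted p = 0.171). After normexp background correction 1 member was called, Itgb1 (adjusted p = 0.029). Lamb2 was at 1.33 (95% confidence interval 0.20 to 2.46, adjusted p = 0.371) and Itgb7 at 1.32 (95% confidence interval 0.21 to 2.43, adjusted p = 0.364). A p above the threshold does not show that the clones are alike, and for Itgb1 the interval spans more than 4 units.

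**Figure D3:**
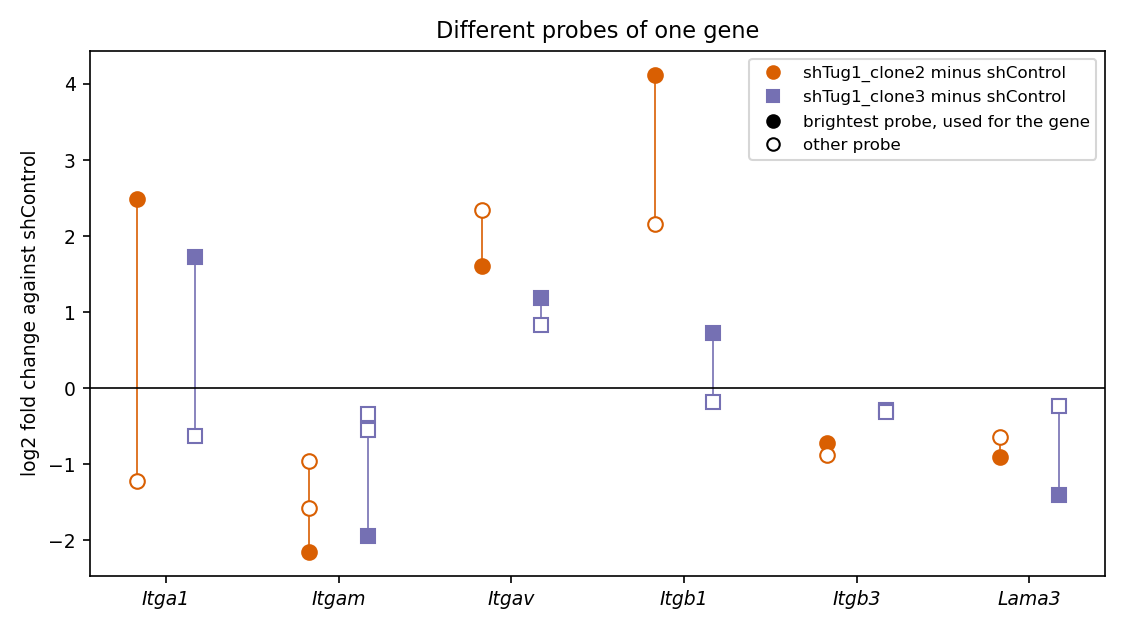
Difference from shControl on the log2 scale for each probe of the 6 genes with more than 1 tested probe, circles for clone 2 and squares for clone 3, filled for the probe used in the report and open for other probes. Both Itgav probes lie above 0 in both clones, the 2 Itga1 probes lie on opposite sides of 0, and both Itgb1 probes are high in clone 2. The open Itgav and Itgb1 probes entered the test through shTug1.

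Genes that work with integrins were read from 3 lists. Of 32 genes of the adhesion machinery that links integrins to actin, 27 were tested: 5 were higher, 12 lower and 10 not called, with a median difference of −0.91. Over all genes 10.2% were higher and 30.4% lower, with a median of −0.64, and the same holds as background for the other 2 lists. The higher genes were Tns3 (4.46), a tensin that binds integrin tails, Actn1 (2.75), an actin crosslinker, Itgb1bp1 (2.18), which binds the Itgb1 tail, Ilk (2.06), the integrin-linked kinase, and Vcl (1.95), vinculin. Ilk and Vcl here, and Tnc and Col1a2 below, were named after their values were seen. The largest falls were in Tns1 (−1.88), Parva (−1.75), a partner of Ilk, and Sharpin (−1.63), an integrin inactivator. Vcl was the gene of this list called between the clones: it read 3.17 and 3.32 in clone 2 and −0.90 and 0.03 in clone 3, against −1.17 and 0.09 in shControl. With the deposited log2 values no gene was called between the clones.

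Of 21 other basement membrane genes and laminin receptors, 20 were tested, with 3 higher, 8 lower and a median difference of −0.78. The higher genes were Sdc1 (2.61), a syndecan, and the widely expressed type IV collagen chains Col4a1 (1.55) and Col4a2 (1.47). Among the lower were Col18a1 (−1.79), Agrn (−1.61), the agrin of the glomerular basement membrane, and Col4a4 (−1.53), a chain of its mature collagen network. Of 25 other matrix and cell-surface ligands, 19 were tested, with 2 higher, 4 lower and a median difference of −0.32. Vcam1, a ligand of Itga4 and Itga9 integrins, was higher (1.25). Tnc was also called higher, but its probe did not rise clearly above background in shControl, so no fold is given. The lower ligands were Npnt (−1.41), the partner of Itga8, Tgfb3 (−1.21), Mfge8 (−1.16) and Col1a2 (−1.15).

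The calls rested unevenly on single arrays, for all genes as for these. A call could be lost with little change in the difference. Without clone 3 replicate 2, Itga5 was at 2.15, Itga9 at −2.05 and Itgam at −1.98, against 2.24, −2.10 and −2.04 with all 6 arrays. Without shTug1 clone 3 replicate 2 there were 0 members higher and 1 lower (Lama1), and 235 and 109 of all 21470 genes. Without clone 3 replicate 1 there were 2 higher (Itga1 and Itga5) and 3 lower (Lama1, Itga9 and Itgam), and 872 and 664 of all genes. Without shControl replicate 1 there were 1 higher (Itga5) and 7 lower, and 1638 and 3412 of all genes. The calls lost there were Itga3, Itgav and Itgb1, given above, with Itga1 (1.29, adjusted p = 0.118), Itga7 (−0.92, adjusted p = 0.0508), Lama2 (−0.99, adjusted p = 0.129) and Lama3 (−0.76, adjusted p = 0.199). Lamb3 (−0.94) and Lamc3 (−1.20) were smaller there but still called. Without shControl replicate 2 there were 5 higher and 14 lower, and 3248 and 11045 of all genes, with Itga3 at 3.46 and Itgb1 at 3.93. Lama5 was not called there (−0.65, adjusted p = 0.0818), and was called only in the fit without shControl replicate 1. Without clone 2 replicate 2, Itgav, Lama2 and Lama3 were also not called. Lama1 was called lower in all 6 of these fits and Itga5, Itga9 and Itgam in 5 of 6 each. The differences of these 4 genes kept their sign throughout, at −3.37 to −2.97 for Lama1, 1.95 to 2.54 for Itga5, −2.61 to −1.59 for Itga9 and −2.33 to −1.75 for Itgam. Lama1 passed the brightness filter through shControl, where it is high, and kept its probe in every fit. Its steadiness here is therefore no separate support.

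**Figure D4:**
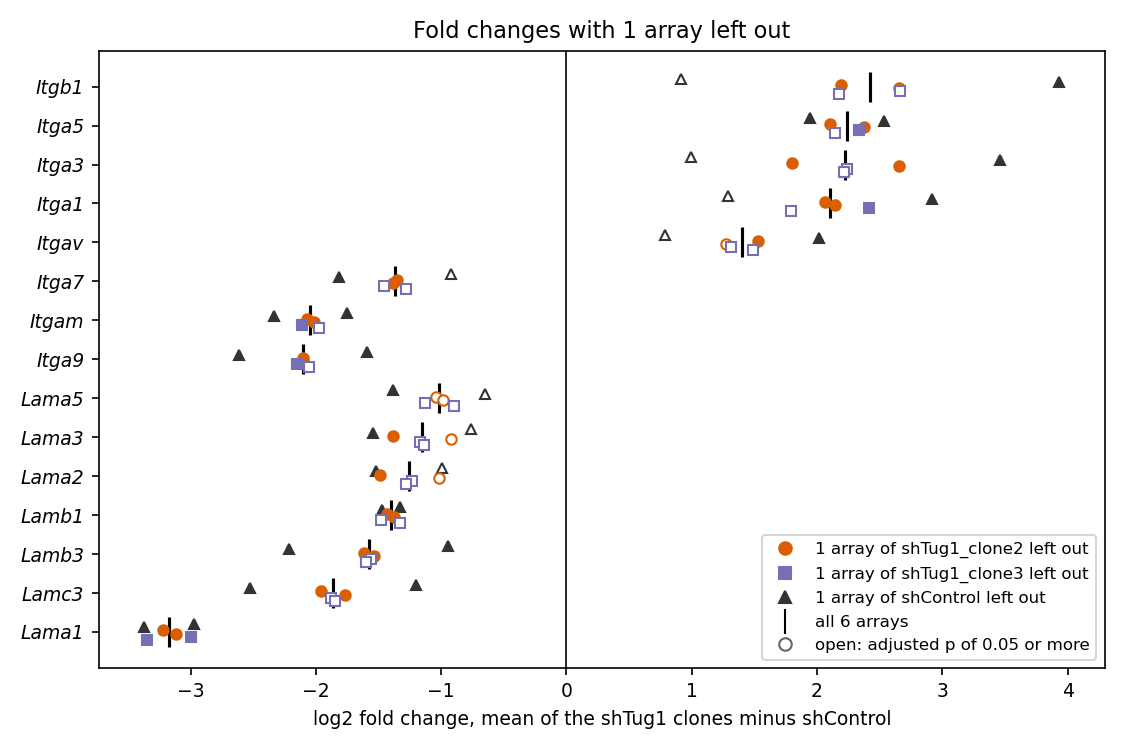
Difference on the log2 scale, mean of the shTug1 clones minus shControl, for the 15 called genes with all 6 arrays (bar) and with 1 array left out (circles for clone 2, squares for clone 3, triangles for shControl, open where the adjusted p was 0.05 or more). Lama1, which entered the test through shControl, lies at −3.37 to −2.97 in these fits, while Itga3 and Itgb1 are at 1.00 and 0.91 without shControl replicate 1.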

How the data were processed

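Total RNA of 6 podocyte cultures was read on 1-colour Agilent mouse arrays (Cy3), 2 per group. Per the file headers and the submitters' processing notes, Agilent Feature Extraction 11.0.1.1 made the deposited intensity values, which are background-subtracted and spatially detrended within each array. Deposited flags of 0 or 1 per spot say whether it is well above background, saturated or an outlier. The series also has a deposited set of log2 values for 19819 probes, whose normalization is not given in the sources. Its columns followed their own arrays (r from 0.9981 to 1.0) with medians from 8.98 to 9.13, so its scale is log2 and not centred. Its differences nearly matched those after quantile normalization, such as 0.204 and 0.203 for Itgb5 and −0.303 and −0.303 for Lamb1 in the mean comparison. The deposited log2 values are therefore not a check separate from quantile normalization.

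The 75th percentile of an array, taken over 43020 gene spots, was subtracted from its log2 processed signals. Control and outlier spots were dropped, and repeat spots averaged. Tested probes (25541 of 39429) rose well above background in both replicates of some group, and the probe of highest mean signal stood for its gene. Probes were named by transcript accession through a RefSeq gene table (27234 matched, 12195 did not and stayed in the tests). limma 3.58.1 in R 4.3.3 (with data.table version 1.17.8) fitted a mean for each of the 3 groups (residual degrees of freedom 3, prior 4.69) with 4 two-sided contrasts. No bound on a fold is given for dim arrays. An exact test of 4 against 2 arrays cannot give a p below 0.0667, so none was used. The model was tested on simulated data.

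The members, lists and named genes were chosen with earlier results of these data known. Every member is accounted for; from each list the 3 largest rises and falls past the threshold and above background on all 6 arrays are named. Ilk, Vcl, Tnc and Col1a2 fall outside that rule. Some genes that match the symbol pattern or a list are not reported here. Alternatives were quantile normalization, normexp background correction with an offset of 50, other filters on dim probes, every probe tested, the deposited log2 values, a replicate block and leaving out each array. The files used here lack the mean signal that was planned for normexp, so the median signal was used, a choice made after seeing the data.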

Additional observations from a re-analysis of the deposited data

Results flagged for a closer look

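Vcl, from the adhesion machinery list, differed between the clones by the test of the difference itself: clone 3 minus clone 2 was −3.68 (limma, adjusted p = 0.0251). Both clone 3 arrays were below both clone 2 arrays, and the difference from shControl was 0.11 in clone 3 and 3.79 in clone 2. The call depends on the processing: with the deposited log2 values 0 of 17122 genes were called between the clones.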

How the results depend on the processing

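In the mean comparison (5 members higher and 10 lower), quantile normalization gave 1 and 6, the deposited log2 values gave 2 and 6 of 22 tested, normexp 4 and 14, no filter on dim probes 3 and 9 of 34, and a filter on all 6 arrays 4 and 10 of 22. The share of all genes called lower moved too, at 14.5%, 20.5%, 59.2%, 22.1% and 39.5% in that order, against 30.4%. Leaving out 1 array gave 0 to 5 higher and 1 to 14 lower. In clone 2 (5 and 10), quantile normalization gave 2 and 6, the deposited log2 values gave 2 and 5, normexp 5 and 15, and leaving out 1 array 2 to 5 and 5 to 16. In clone 3 (1 and 3), normexp gave 2 and 9, no filter 1 and 1, the filter on all 6 arrays 1 and 5, the deposited log2 values gave 1 and 2, and leaving out 1 array 0 to 5 and 0 to 12. Clone 3 minus clone 2 (0 and 0) gave 0 and 1 with normexp, and 0 to 1 each way with 1 array left out. Where 1 array was left out, the lone array was assumed to vary like the other groups. Quantile normalization and the deposited log2 values turned the sign of Itgb5 in the mean comparison (0.20 and 0.20) and in clone 2 (0.11 and 0.11) and of Lamc1 (0.11 and 0.11). These settings gave nearly the same differences, so they do not count as separate checks. With 1 array left out, Itga6 ranged from −0.21 to 0.33, Itgb2 from −0.45 to 0.18, Lamc1 from −0.90 to 0.18, Lamb2 in clone 2 from −0.82 to 0.44 and Itgb1 in clone 3 from −0.79 to 2.23. The calls lost without 1 array are named in the report for the mean comparison, and the causes were not tested. The replicate numbers did not pair the arrays (correlations of deviations −0.09, −0.04 and 0.11). With the replicate block there were 5 and 10 members in the mean comparison, with Lama5 no longer called and Itgal called, 5 and 11 in clone 2 and 1 and 3 in clone 3. Signals near background limit Itga1, Lama1, Lama2, 1 of the uncalled Itgam probes and the second probes of Itga1, Itgav, Itgb1 and Itgb3.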
